A study of Homo sapiens with 4 samples.

Results

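The genes described here serve the interferon response and antigen presentation, and they were measured in A549 cells, a human lung adenocarcinoma line, with and without overexpression of the microRNA gene let-7a-3. Members were all probes with a single gene symbol that names an HLA gene, a gene of antigen processing (B2M, the TAP transporter, tapasin, immunoproteasome and PA28 subunits), an interferon, interferon receptor or interferon regulatory factor, or an interferon-induced gene of the IFI, OAS, MX, ISG, GBP, BST2 and TRIM names. CD74 and CIITA were members too, counted below with HLA class II. The rule found 91 of 26629 probes, which stand for 58 of 12483 named genes, and 34 of the 58 genes had 1 probe each. The study set cultures transfected with let-7a-3 against untransfected parental cultures of the same line on 4 two-colour cDNA arrays, 1 culture of each kind per array. The dyes changed places, so that arrays 1 and 3 had 1 orientation and arrays 2 and 4 the other. The cultures are labelled as untreated, so no interferon was given, and the series text calls them biological replicates. The labels do not say if 1 transfected clone or a pool was grown. Since the control is the parental line, effects of transfection and selection cannot be told apart from those of let-7a-3.

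All values are log ratios between the 2 channels as the authors deposited them. Neither the base of the logarithm nor the channel in the numerator is stated, so a negative value cannot be assigned to the let-7a-3 or to the parental cultures, and no fold change is given. Turning the sign would turn every direction below together. Each gene has a shared component, the mean over the 4 arrays, and an alternating component, which changes sign with the dye orientation and is given with the sign of arrays 1 and 3. Which of them holds the difference between the cultures depends on whether the arrays were turned to 1 orientation before deposit, which the sources do not say. Where 1 array is left out, the shared value is the midpoint of the 2 orientation means. The array left alone in its orientation then counts as much as the other 2 together. Arrays of like orientation correlated at 0.425 (arrays 1 and 3) and 0.558 (arrays 2 and 4) across all probes, and pairs of unlike orientation at -0.162 to 0.055. These are Pearson's r over probes, which are not independent replicates. The array medians lay between -0.0022 and 0.0174. Precision is limited by there being only 4 arrays, and the table holds ratios without intensities, so neither the level of a gene nor its absence from A549 cells can be read from it.

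Interferons are secreted proteins that signal through paired receptor chains and JAK kinases to transcription factors, the interferon regulatory factors among them, and these switch on antiviral genes and genes of antigen presentation. HLA class I molecules show peptides from inside the cell. The peptides are cut by the proteasome, whose catalytic subunits can be exchanged for the immunoproteasome subunits PSMB8, PSMB9 and PSMB10, and are carried into the endoplasmic reticulum by the transporter of TAP1 and TAP2. HLA class II molecules show peptides taken up from outside and are mainly made by specialised immune cells under the control of CIITA. Loss of class I presentation is a well-known trait of many carcinomas.

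The overexpressed gene encodes the mature microRNA let-7a, which pairs with target RNAs mainly through its seed. It is shown here because it is the product that the transfected cultures were made to overexpress, with the seed, bases 2 to 8 from the 5′ end, in capitals (RefSeq, GRCh38.p14, chr22:46112752-46112773, plus strand).
hsa-let-7a-5p: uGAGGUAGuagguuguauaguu

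The promoter stretches below come from RefSeq (GRCh38.p14) and run 5′ to 3′ on the strand of the gene. They are shown because the genes differ in matches to the core of the interferon-stimulated response element, the DNA element bound by interferon regulatory factors. Their log ratios are given further on, and a link between matches and log ratios was not tested. Capitals mark the core, GAAANNGAAA, searched on both strands, so that it reads TTTCNNTTTC on the other strand. Positions count from the annotated start, the base before it being -1. PSMB8, shown at chr6:32844038-32844167 on the minus strand, holds 1 match, from -4 to 6, at the second of its annotated starts. TAP1, at chr6:32853695-32853864 on the minus strand, holds 2 overlapping matches between -134 and -119, and the window of its other annotated start holds 0. IFIT1, at chr10:89392503-89392632 on the plus strand, holds 2 matches between -116 and -94. HLA-B, at chr6:31357170-31357299 on the minus strand, holds 0 matches in its window.
PSMB8: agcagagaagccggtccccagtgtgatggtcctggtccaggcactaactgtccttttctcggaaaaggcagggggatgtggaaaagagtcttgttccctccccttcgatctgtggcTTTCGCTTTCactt
TAP1: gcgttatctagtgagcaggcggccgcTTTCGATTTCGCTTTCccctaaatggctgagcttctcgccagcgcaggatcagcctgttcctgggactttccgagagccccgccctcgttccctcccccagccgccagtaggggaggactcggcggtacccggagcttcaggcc
IFIT1: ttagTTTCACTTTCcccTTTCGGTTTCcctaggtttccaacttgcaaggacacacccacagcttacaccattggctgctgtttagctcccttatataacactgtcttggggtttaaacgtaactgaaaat
HLA-B: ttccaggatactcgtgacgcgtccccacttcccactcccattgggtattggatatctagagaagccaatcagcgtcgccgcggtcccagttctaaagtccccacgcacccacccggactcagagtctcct

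The first comparison asks which of these genes had a log ratio away from 0 in the shared component, whether or not that component holds the difference between the cultures. PSMB8, HLA-B and IRF3 were the member genes past the threshold, the first 2 with negative and IRF3 with a positive log ratio, and IFI16 passed in 2 of its 3 probes. These log ratios were small, none of the 4 genes reaching 0.3 in size as a mean over its probes. At the gene level 3 of 58 members passed an adjusted p of 0.05 in limma (5.17%), against 3.04% of all 12483 genes. The 2 negative calls stand beside 1.41% of all genes and the positive one beside 1.63%. At the probe level 4 of 91 member probes passed (4.4%), all negative, against 2.07% of all 26629 probes and 0.946% for negative calls. The gene-level share lies near the background. At an unadjusted p under 0.05 stood 11 of the 58 genes, 8 of them negative, against 14.6% of all genes and 6.99% for negative values (19.0% of the members). On all 4 arrays 8 member genes were negative and 5 positive, against 6.94% and 8.84% of all genes. The members' median log ratio was -0.012, with 27 positive and 31 negative genes, and that of all genes was 0.007.

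**Figure D1:**
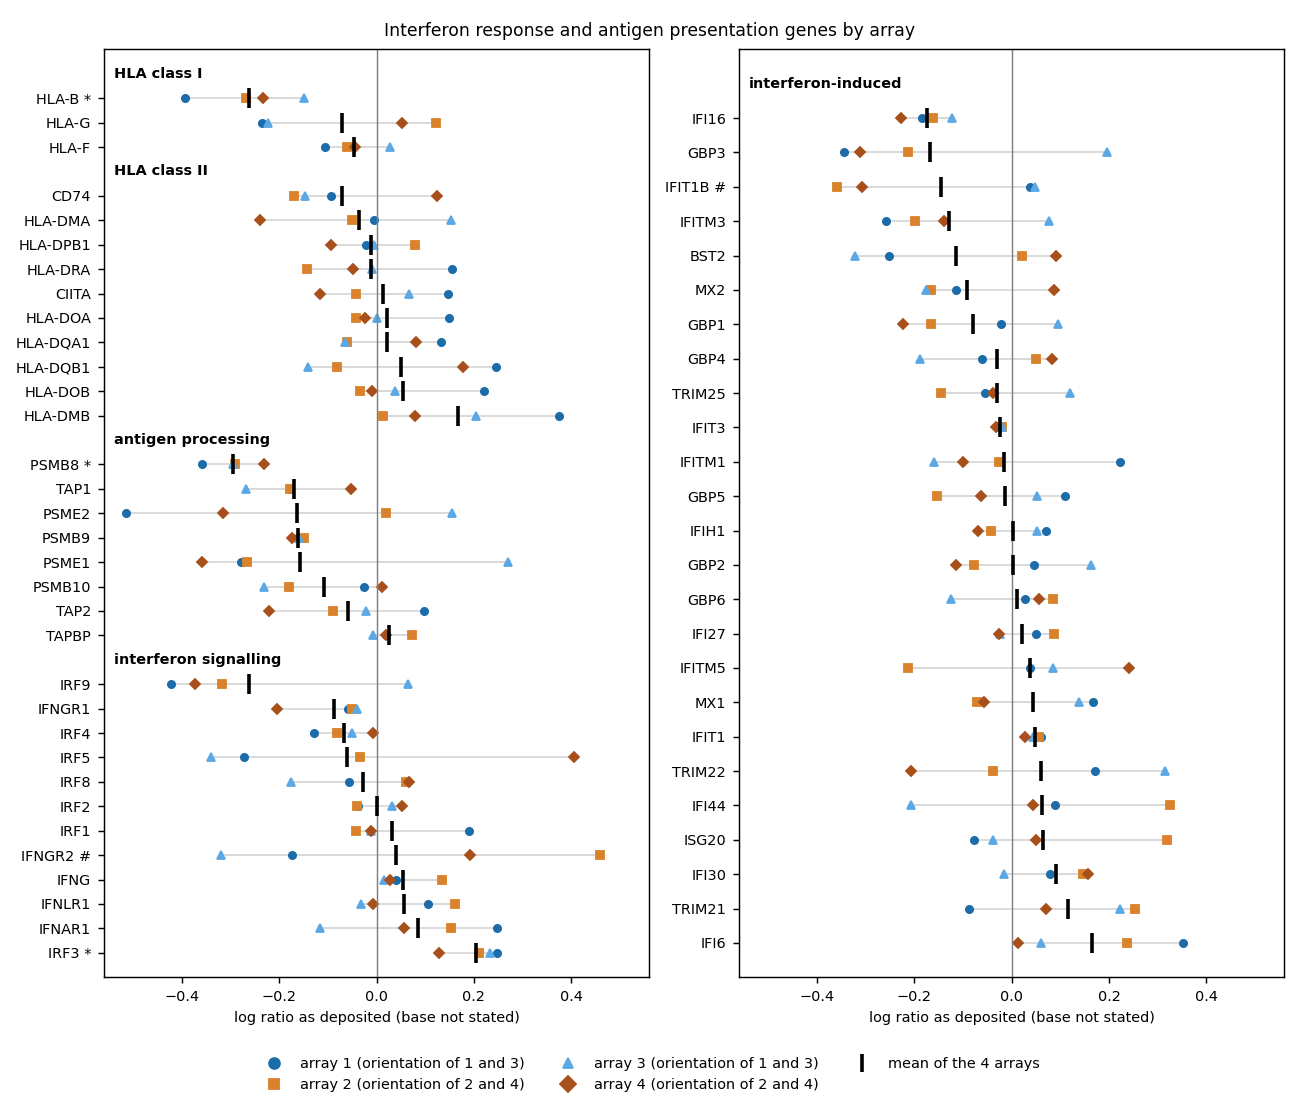
Log ratio as deposited (horizontal axis) of each of the 58 member genes, grouped by role, with 1 symbol per array and a black bar for the mean of the 4 arrays. A star marks an adjusted p under 0.05 in the shared component (PSMB8, HLA-B and IRF3) and a hash one in the alternating component (IFNGR2 and IFIT1B); most other genes have arrays on both sides of 0.

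The antigen processing genes had the most negative median of the 5 roles, -0.160, and 7 of the 8 measured had a negative mean. PSMB8, the immunoproteasome subunit that replaces PSMB5, had gene-level log ratios of -0.358, -0.291, -0.295 and -0.231 on arrays 1 to 4. All 4 arrays were negative and close together. Its mean was -0.294 ± 0.052 (SD, n = 4 arrays; limma adjusted p = 0.00788), which ranked 85 from the lowest of 12483 genes. Both of its probes passed, at -0.247 (adjusted p = 0.0386) and -0.341 (adjusted p = 0.0155), so 2 separate clones of the gene gave the same sign and similar size. With array 3 or array 4 left out, 1 of the 2 probes still passed. Without array 2 PSMB8 did not pass (-0.279, adjusted p = 0.0678).

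PSMB9, the immunoproteasome subunit that replaces PSMB6, had log ratios of -0.164, -0.150, -0.160 and -0.174. These are the most even values among the antigen processing genes. The mean of -0.162 ± 0.010 did not pass (adjusted p = 0.0784), with a 95% interval of -0.253 to -0.072 in limma's moderated fit. TAP1, a chain of the peptide transporter, had -0.178, -0.178, -0.269 and -0.053, negative on every array, with a mean of -0.170 ± 0.089 (adjusted p = 0.0968). PSMB10, the counterpart of PSMB7, was at -0.107 ± 0.117 (adjusted p = 0.413), with array 4 at 0.011. TAP2, the other transporter chain, was at -0.059 over 2 probes of which 1 lay at -0.132 and the other at 0.015. TAPBP, which encodes tapasin, the bridge between the transporter and class I molecules, was at 0.026, with its 3 probes between -0.002 and 0.046.

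The 2 chains of the PA28 proteasome activator differed between arrays in another way. PSME1 stood at -0.278, -0.265, 0.270 and -0.358, so array 3 alone was positive. PSME2 stood at -0.514, 0.019, 0.154 and -0.315, with arrays 2 and 3 above 0. Their means, -0.158 ± 0.288 and -0.164 ± 0.306, did not pass with all arrays (limma adjusted p = 0.429 and 0.524). Without array 3 they were at -0.295 (adjusted p = 0.000152) and -0.331 (adjusted p = 0.00014), and without array 1 at -0.021 and 0.003. Their values thus rest on which of these arrays is kept.

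The constitutive subunits that PSMB8, PSMB9 and PSMB10 replace were also measured. PSMB5 was at 0.051 ± 0.076, with array 3 at -0.038 and the other arrays above 0. PSMB6 was at -0.153 ± 0.124 (adjusted p = 0.134) and PSMB7 at -0.163 ± 0.059 (adjusted p = 0.107), both negative on all 4 arrays. The values of PSMB6 and PSMB7 thus lay beside those of PSMB9 and PSMB10, and only for PSMB8 and PSMB5 did the means have opposite signs; the difference between the 2 kinds of subunit was not tested.

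**Figure D2:**
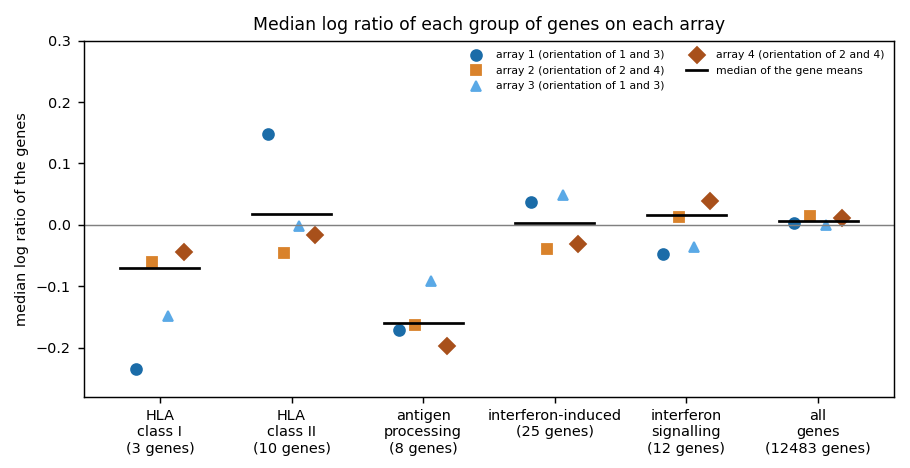
Median log ratio over the genes of each role and over all named genes (vertical axis), with 1 symbol per array and a black line for the median of the gene means. The antigen processing genes have medians of -0.171, -0.164, -0.091 and -0.197 on arrays 1 to 4, while the medians of the interferon-induced genes lie between -0.039 and 0.049 and those of all genes between 0 and 0.015.

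Of HLA class I, 3 genes were measured, all with negative means, and their median was -0.071. HLA-B, a classical class I heavy chain, had log ratios of -0.394, -0.269, -0.148 and -0.233. All 4 arrays were negative and arrays 2 to 4 lay above array 1. The mean was -0.261 ± 0.102 (SD, n = 4; adjusted p = 0.0339), but the same single probe had an adjusted p of 0.0544 when adjusted over all probes, so its call depends on the level at which the table is fitted. It was also lost without array 2 (adjusted p = 0.16) and without array 4 (adjusted p = 0.119). HLA-F, a nonclassical class I chain, was at -0.046 ± 0.055, with array 3 at 0.027. HLA-G, the nonclassical chain best known from the placenta, had -0.235, 0.121, -0.223 and 0.052. Its arrays split in sign by dye orientation, as did 28.8% of all probes. Neither its shared component (-0.071, limma adjusted p = 0.478) nor its alternating one (-0.158, adjusted p = 0.0692) passed. HLA class I genes are close in sequence, and a cDNA clone of 1 can bind RNA of another, so the HLA-B value is uncertain as to the gene.

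The class II role held 10 genes, CD74 and CIITA among them, with a median of 0.017, and 6 of the means were positive and 4 negative. Limma called 0 of them, and 1 had an unadjusted p under 0.05: HLA-DMB, a chain of the molecule that loads peptides onto class II. Its log ratios were 0.375, 0.013, 0.205 and 0.079, positive on every array, with a mean of 0.168 ± 0.159 (adjusted p = 0.114). Its partner chain HLA-DMA was at -0.036 ± 0.161, with arrays on both sides of 0. HLA-DRA, the invariant alpha chain of HLA-DR, was at -0.011 ± 0.124. CIITA, the master activator of class II genes, was at 0.014 over 3 probes, and CD74, the invariant chain that escorts class II molecules, at -0.071 over 2 probes. The 2 CD74 probes had means of -0.150 and 0.008, and the first of them ranged from -0.491 on array 1 to 0.325 on array 4.

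Blood cells carry class II molecules, and 9 of 14 blood cell markers were measured. NKG7, a protein of cytotoxic granules, passed with a negative log ratio (-0.262 ± 0.114, adjusted p = 0.0141), while the other 8, among them PTPRC and CD14, did not. The medians of the 9 markers were -0.067, 0.080, -0.044 and 0.044 on the 4 arrays, and those of the class II genes 0.148, -0.046, -0.003 and -0.017. The cultures were of the A549 line, so no blood cells were sampled. A link of the markers to the class II values was not tested, and as ratios they cannot show whether RNA of these genes was present. Of 5 epithelial markers 4 were measured, and keratin 8, KRT8, passed (0.390 ± 0.126). EPCAM (0.095), KRT19 (-0.004) and CDH1 (-0.048) did not pass.

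Among measured members, TAP2, PSMB8, TAP1 and PSMB9 follow one another on chromosome 6 between HLA-DOB and HLA-DMB, within the class II region of the major histocompatibility complex. Their means were -0.059, -0.294, -0.170 and -0.162. The class II genes on either side were at 0.054 (HLA-DOB) and 0.168 (HLA-DMB). Of the 16 measured genes of the complex shown in that order, the 4 lowest means were those of PSMB8, HLA-B, TAP1 and PSMB9. No test was made of the order.

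**Figure D3:**
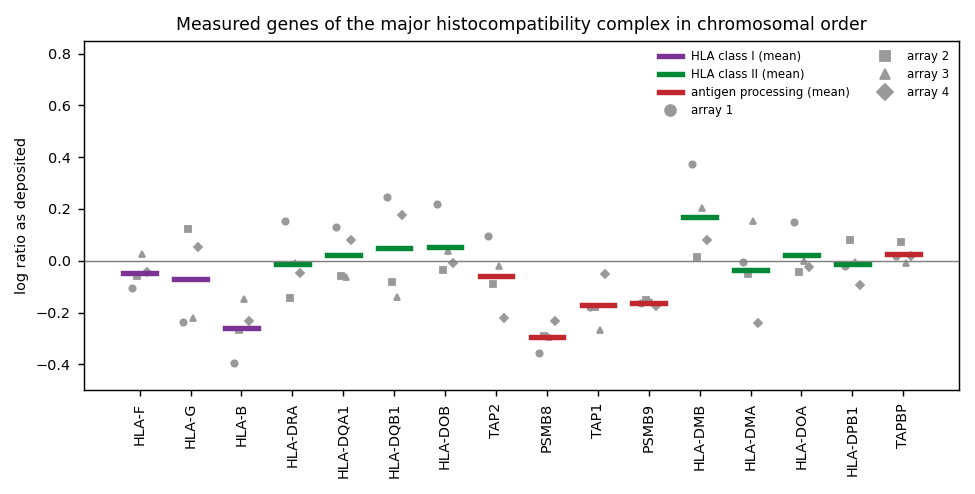
Log ratio as deposited (vertical axis) of the measured HLA and antigen processing genes of chromosome 6 in their order along the chromosome, not to scale. Grey symbols are the 4 arrays and coloured bars the means. PSMB8 (-0.294), TAP1 (-0.170) and PSMB9 (-0.162) lie below their class II neighbours HLA-DOB (0.054) and HLA-DMB (0.168).

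The 25 interferon-induced genes, grouped by their names, so that relatives such as IFIT1B and IFITM5 are among them, had a median of 0.003, and 13 of the means were positive and 12 negative. At the gene level limma called none of them, and 4 had an unadjusted p under 0.05 (IFI16, IFIT1B and BST2, negative, and IFI6, positive). That number is near the background of 14.6% of all genes. IFIT1, an antiviral protein that binds foreign RNA and one of the most inducible interferon genes, had log ratios of 0.061, 0.057, 0.044 and 0.028. The values were close together and near 0, with a mean of 0.048 and a 95% interval of -0.043 to 0.138 in limma. MX1, an antiviral GTPase, was at 0.044 (interval -0.046 to 0.135), and its arrays split by orientation, with 0.168 and 0.138 on arrays 1 and 3 against -0.072 and -0.056 on arrays 2 and 4. MX2, its paralogue, was at -0.092 (interval -0.210 to 0.025). GBP1, a guanylate-binding protein induced by interferon gamma, was at -0.079 (interval -0.176 to 0.019). IFI27 (0.022), IFITM1 (-0.016), IFIH1 (0.003), an RNA sensor, and IFIT3 (-0.023) lay closer to 0. The largest positive mean of the role was that of IFI6, a small mitochondrial protein, with 0.352, 0.237, 0.060 and 0.014 on the 4 arrays. Array 1 was the highest and array 4 the lowest, and the mean of 0.166 ± 0.157 did not pass (adjusted p = 0.251).

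IFI16, a sensor of DNA in the nucleus and cytosol, had 3 probes. The first measured -0.263, -0.263, -0.128 and -0.482 (mean -0.284, adjusted p = 0.0395), and the second -0.297, -0.246, -0.265 and -0.196 (mean -0.251, adjusted p = 0.0349). Both were negative on all 4 arrays. The third gave 0.004, 0.025, 0.025 and -0.004, within 0.03 of 0 on every array (mean 0.013). Averaged over the 3 probes IFI16 was at -0.174 ± 0.044 and did not pass (adjusted p = 0.0713), whereas the median of its probes did (-0.208, adjusted p = 0.0409). The first 2 probes and the third therefore gave different answers for the same gene, and no clone sequences were analysed here. Neither of the 2 called probes passed with array 1, array 2 or array 4 left out, nor without the dye term or without moderation.

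Interferon itself and its signalling chain gave 12 measured genes, with a median of 0.016. IRF3, the factor that switches on interferon genes after virus sensing, was the only one past the threshold in the shared component. Its single probe measured 0.247, 0.210, 0.232 and 0.128. All arrays were positive, and the mean was 0.204 ± 0.053 (adjusted p = 0.0379). At the probe level, where its single probe is adjusted over all probes, the adjusted p was 0.0838, and the call was lost without array 2 (0.184, adjusted p = 0.299) or array 4 (0.225, adjusted p = 0.153). IRF9, the factor that carries type I interferon signals to DNA, measured -0.422, -0.318, 0.064 and -0.373. Array 3 alone was positive, and the mean of -0.262 ± 0.222 did not pass (adjusted p = 0.127). Without array 3 it was -0.384. Leaving out array 1, where array 3 counts as much as arrays 2 and 4 together, gave -0.141.

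The receptor chains and interferon gamma gave smaller shared values. IFNGR1, the ligand-binding chain of the interferon gamma receptor, was at -0.088 (interval -0.189 to 0.012), negative on all 4 arrays but mainly on array 4 (-0.205). Its 2 probes disagreed, with -0.165, -0.177, 0.018 and -0.250 in 1 and 0.046, 0.078, -0.098 and -0.159 in the other. IFNAR1, a chain of the type I interferon receptor, was at 0.085 (interval -0.057 to 0.227), and its 3 probes were all positive, between 0.049 and 0.125. Without array 1, where array 3 (-0.117) counts as much as arrays 2 and 4 together, IFNAR1 was at -0.006. Without array 3 it was at 0.176. IFNG, which encodes interferon gamma and is known as a product of lymphocytes, was at 0.054 (interval -0.041 to 0.150). IRF1, the factor that interferon gamma induces, was at 0.031, with array 1 at 0.189 and the other arrays between -0.043 and -0.011. None of the genes in this paragraph passed in limma with all 4 arrays.

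**Figure D4:**
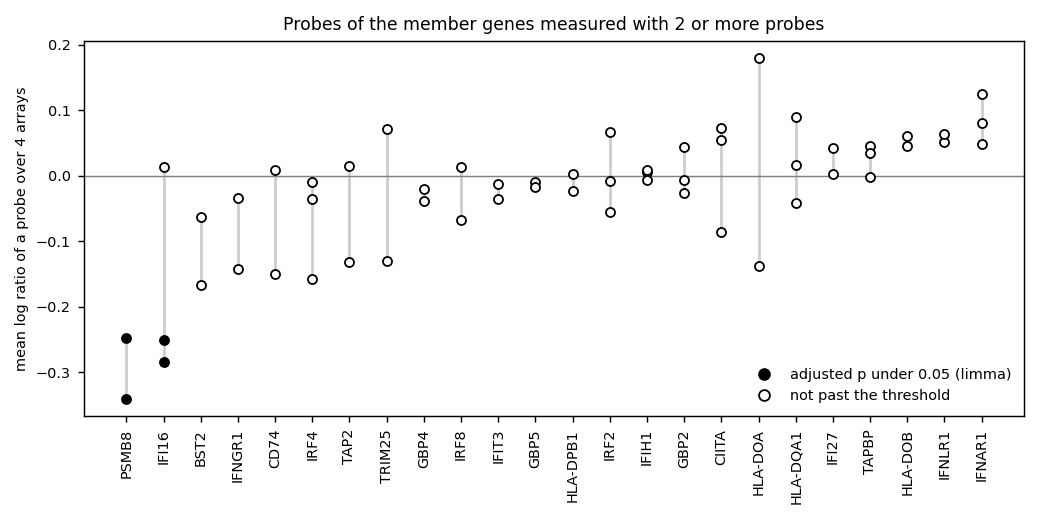
Shared log ratio as deposited (vertical axis) of each probe of the 24 member genes with 2 or more probes, with filled symbols for probes past an adjusted p of 0.05. Both PSMB8 probes lie at -0.247 and below, while 2 IFI16 probes lie at -0.284 and -0.251 and the third at 0.013.

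Probes of the same gene gave the same sign in 11 of the 24 member genes with 2 or more probes (45.8%), against 2129 of 5075 such genes in the whole table (42.0%). The median gap between a gene's lowest and highest probe was 0.087 among members and 0.097 among all genes. A gap of that size is larger than most of the members' means. Besides IFI16, HLA-DOA, a chain of the class II modulator HLA-DO, had probes at -0.138 and 0.180, and TRIM25, a ubiquitin ligase of RNA sensing, had probes at -0.130 and 0.072.

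Array 3 stood apart among the members more often than the other arrays. Of the 91 member probes, 22 had array 3 alone with the other sign (24.2%), against 18.5% of all probes. Array 1 alone differed in 6 (6.59%), array 2 in 4 (4.4%) and array 4 in 13 (14.3%), against 7.98%, 8.25% and 9.63% of all probes. Array 3 was thus the one most often apart in the whole table too. With array 3 left out, 13 of the 58 genes passed (22.4%, 9 of them negative), against 11.8% of all genes and 5.79% for negative calls. Besides PSMB8, HLA-B and IRF3 they were IRF9, PSME1, PSME2, PSMB9, IFI16, GBP3, IFITM3, IFI6, HLA-DMB and IFNAR1. GBP3, a guanylate-binding protein, was at -0.345, -0.213, 0.196 and -0.311, the same pattern as in IRF9 and PSME1. IFITM3, a membrane protein that blocks virus entry, was at -0.258, -0.198, 0.077 and -0.138. In that fit array 1 is the only array of its orientation, is fitted exactly and is taken to vary like the others. The residual is then only the gap between arrays 2 and 4, so the calls of that fit are not comparable with those of the main fit. With array 2 left out, 0 of the 58 genes passed in limma, against 1.43% of all genes, while 9 (15.5%) had an unadjusted p under 0.05, where the share of all genes was 8.97%.

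The promoter table held windows for 50 of the 58 genes, from 250 bases before to 50 after each annotated start. The core of the interferon-stimulated response element occurred in 23 of these 50 (46.0%), against 1195 of 27305 genes with a window (4.38%). The members were chosen by name as interferon response and antigen presentation genes, so this share reflects that choice and is no result of the arrays. The core occurred in 7 of 8 antigen processing genes, all but PSMB9, and in 15 of 21 interferon-induced genes. It occurred in 1 of 3 class I genes (HLA-F), 0 of 8 class II genes and 0 of 10 signalling genes. The 7 antigen processing genes with the core had a median log ratio of -0.158, 6 of them negative. PSMB9, with no match in its own window, was at -0.162. TAP1 and PSMB9 start on opposite strands, and the 2 TAP1 matches lie between these starts, outside the PSMB9 window. The 15 interferon-induced genes with the core, IFIT1 and MX1 among them, had a median of 0.003, 7 of them negative. PSMB8 (-0.294), TAP1 (-0.170) and IFIT1 (0.048) hold the core in the stretches printed above, and HLA-B (-0.261) has no match in its window. Of these, TAP1 and IFIT1 did not pass. The differences between these genes were not tested. Over all measured genes with a window the median was 0.003 for the 420 with the core and 0.007 for the 9664 without. A match is a run of letters and no proof of a working element, and a missing match does not show that the element is absent.

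Beyond the members, 53 of 83 other genes of the same pathways were measured, with a median of 0.001. Of these, 3 passed, all negative, against 3.04% of all genes and 1.41% for negative calls. At an unadjusted p under 0.05 stood 12, 8 of them negative, against 14.6% and 6.99% of all genes. LGALS3BP, a secreted glycoprotein that interferon can induce, measured -0.933, -0.688, -0.820 and -0.810. The 4 arrays were close together and far below 0, with a mean of -0.813 ± 0.10 (adjusted p = 5.55e-05). CTSL, the lysosomal protease cathepsin L, measured -1.062, -0.576, -0.547 and -0.399, with a mean of -0.646 ± 0.288 (adjusted p = 0.00429). LGMN, the lysosomal protease legumain, measured -0.509, -0.244, -0.303 and -0.096, with a mean of -0.288 ± 0.171 (adjusted p = 0.0237). Both proteases can cut the invariant chain or antigens for class II presentation and have many other substrates. All 3 genes were negative on every array, and array 1 was the lowest in each. Further genes of class I and class II assembly lay near 0, among them CANX (0.064) and PDIA3 (0.002), chaperones of class I folding. Other interferon-induced genes of the list had smaller values. ADAR, an RNA-editing enzyme, was at 0.129 (adjusted p = 0.191), and UBE2L6, the conjugating enzyme for ISG15, at -0.125 (adjusted p = 0.183).

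The second comparison asks which members followed the dye orientation. IFNGR2, the signalling chain of the interferon gamma receptor, and IFIT1B, a relative of IFIT1, passed at the gene level, with opposite signs. This is 2 of 58 genes (3.45%), against 3.29% of all genes. At the probe level 3 of 91 passed (3.3%), against 4.28% of all probes, so in both fits the members' share lay near the background. IFNGR2 measured -0.174 and -0.319 on arrays 1 and 3 and 0.459 and 0.191 on arrays 2 and 4. The 2 orientations had opposite signs, as in 28.8% of all probes and 25 of the 91 member probes (27.5%). The alternating component was -0.286 (limma adjusted p = 0.0395), while the shared one was 0.039. IFIT1B measured 0.037 and 0.049 on arrays 1 and 3 and -0.359 and -0.307 on arrays 2 and 4. Its alternating component was 0.188 (adjusted p = 0.048), and the deviation from 0 lay on arrays 2 and 4 alone. Without array 2 neither passed (IFNGR2 -0.219, adjusted p = 0.186; IFIT1B 0.175, adjusted p = 0.249).

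BST2, which encodes tetherin, a membrane protein that holds back budding virus, passed in 1 of its 2 probes. That probe measured -0.396 and -0.549 on arrays 1 and 3 and 0.020 and 0.255 on arrays 2 and 4 (alternating component -0.305, adjusted p = 0.031). The other BST2 probe had an alternating component of -0.038, and the gene as a whole did not pass (-0.171, adjusted p = 0.0607). HLA-DOB, the beta chain of HLA-DO, likewise had 1 probe past the threshold (0.275, adjusted p = 0.0372), and its other probe had the opposite sign (-0.124). In both genes the call thus rests on 1 of 2 clones. It also rests on single arrays: the BST2 probe did not pass without array 2, 3 or 4, and the HLA-DOB probe did not pass without array 1, 2 or 4. Among the other pathway genes JAK1, a kinase that serves both interferon receptors, was the only one past the threshold (0.269, adjusted p = 0.0395), with 0.129 and 0.377 on arrays 1 and 3 and -0.325 and -0.246 on arrays 2 and 4. IFNGR2 and JAK1 act in the same receptor complex and had opposite signs.

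**Figure D5:**
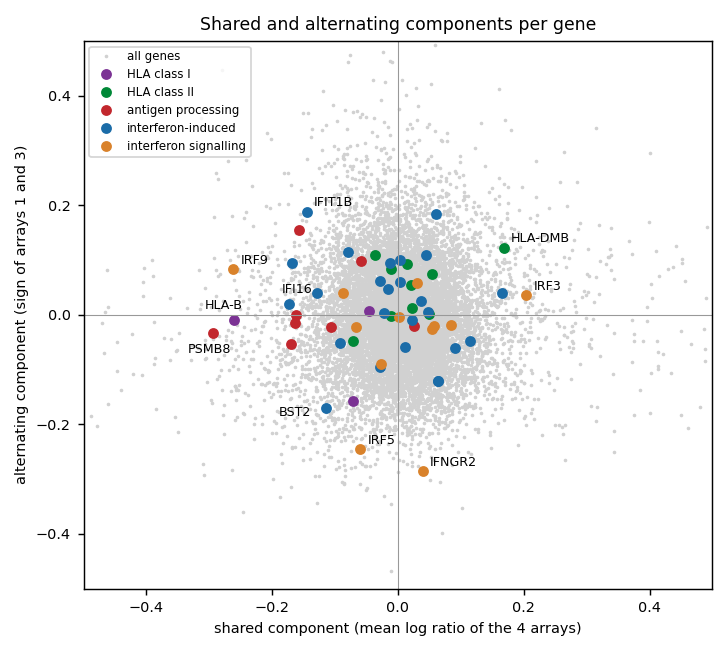
Shared component (horizontal axis) against alternating component (vertical axis) of the log ratio, for all named genes in grey and the member genes in the colours of their roles. PSMB8 (-0.294) and HLA-B (-0.261) lie to the left, close to 0 on the vertical axis, IFNGR2 lies low at -0.286 on that axis, and 78 genes fall outside the plotted range of 0.5 in either direction.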

How the data were processed

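Scanner files of the 2-colour cDNA arrays were processed by the authors with ArrayMagic and its variance-stabilizing normalization (VSN), per the series design text, and limma was their test. What they deposited is a table of log ratios, 1 column per array, without intensities. VSN compresses ratios of dim spots, and depth has no counterpart here: the 4 arrays limit the precision. Per the labels' protocols, RNA was amplified by T7 transcription before labelling.

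These values were not normalized again. The platform annotation gave the gene names: 20976 had 1 symbol, 848 several (8 of which hold a member's symbol and were not used) and 4805 none. All probes (or the mean of a symbol's probes) were fitted in limma 3.58.1 (R 4.3.3) with a shared and an alternating coefficient. This left 2 residual degrees of freedom, to which moderation added 7.22 for probes and 5.89 for genes. With 1 array left out, the array alone in its orientation is fitted exactly. The residual then rests on the other 2 arrays, so p-values and counts of such fits are not comparable with those of all 4 arrays. All tests were two-sided, and p-values were adjusted after Benjamini and Hochberg over the whole table, with 0.05 as the threshold. The ± values are SDs over the 4 arrays and hold both components, and intervals are limma's 95% intervals.

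Named genes are members with a called probe, the 3 genes with the largest statistic in each role, and a list of genes named where measured (30 of 42). HLA-DOA, TRIM25, GBP3, IFITM3, IFIH1, IFIT3, ADAR and UBE2L6, with CANX, PDIA3 and PSMB5 to PSMB7, were named after their values were seen. Members and lists were chosen with earlier results of these data known. Alternatives changed the dye term, scaling, moderation, weights, probe summary, threshold and arrays. Promoters and the miRNA come from RefSeq (GRCh38.p14).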

Additional observations from a re-analysis of the deposited data

Results flagged for a closer look

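In 39 tests an array's distance from the nearest other array was taken as a share of the range over the 4 arrays. Chance would mark about 1 test in 20, and 3 exceeded Dixon's critical value for 4 samples, each in a gene. In IFNGR1, the binding chain of the interferon gamma receptor, array 4 (-0.205) stood apart from the other arrays (-0.059 to -0.040), with a ratio of 0.883. This is a mean of 2 probes, neither of which showed array 4 alone apart: array 3 (0.018) stood apart in 1, and arrays 3 and 4 (-0.098 and -0.159) in the other. In IRF1, array 1 (0.189) stood apart from the others (-0.043 to -0.011), with a ratio of 0.863. In PSME1, a chain of the PA28 activator, array 3 (0.270) stood apart from the others (-0.358 to -0.265), with a ratio of 0.851.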

How the results depend on the processing

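The medians of the 5 roles moved by less than their spread over arrays under all alternatives run, and no called value changed sign. The counts of calls moved more. In the shared component the 4 member probes became 0 without the dye term (11 at an unadjusted p under 0.05), 0 without moderation (11), 0 at a threshold of 0.01, and 0 to 9 with 1 array left out. The 3 genes became 1 without the dye term, 0 without moderation (10 at an unadjusted p), 1 at 0.01, 6 at 0.1 and 0 to 13 with 1 array left out. In the alternating component the 3 probes became 0 without the dye term (14), 0 without moderation (12), 0 at 0.01, 10 at 0.1 and 0 to 6 with 1 array left out. The 2 genes became 0 without the dye term (8), 0 without moderation (5), 0 at 0.01, 6 at 0.1, 8 with the probe of the largest statistic per gene and 0 to 12 with 1 array left out. The last 2 rises went with the whole table, where 14.3% of genes passed with the probe of the largest statistic and 18.4% without array 1, which gave the 12. Without the dye term or moderation the share of all genes called also fell (to 1.25% and 0% in the shared component, against 3.04%). At 0.1 the alternating calls rose from 4.28% to 11.8% of all probes, and those among all genes rose too. At an unadjusted p under 0.05 in that component stood 19.7% of all probes without the dye term and 15.5% without moderation. The member probes' shares were 15.4% and 13.2%. For genes, 13.8% and 8.62% of members stood against 18.9% and 15.3% of all. In the shared component 12.1% of member probes in both fits lay above 6.69% and 9.44% of all probes.

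PSMB8 kept its call under 12 of 14 alternatives and lost it without moderation and without array 2 (adjusted p over all of them 7.21e-05 to 0.311). HLA-B (3.93e-05 to 0.469), IRF3 (0.00641 to 0.358) and IFIT1B (0.00974 to 0.277) each kept theirs under 10, and IFNGR2 under 11 (0.000179 to 0.338). The cause of these losses was not tested. The lowest value of each range came from a fit with 1 array left out, which is not comparable with the main fit. Some kept calls were fixed in advance. At the gene level, the alternative that fits only probes with 1 symbol repeats the main fit. HLA-B, IRF3, IFIT1B and IFNGR2 have 1 probe each, so the alternative probe summaries reuse the same log ratios. No paired analysis was possible because each array already pairs a let-7a-3 culture with a parental one and the arrays form 1 group. Dim probes could not be set apart, since signal over background was not analysed here.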
